A study of Homo sapiens with 24 samples.

Results

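The expression of 9 genes of the interferon response and of the STING pathway was examined in A2058 cells, an established human melanoma line. The 9 genes were ISG15, IFIT1, IFIT2, IFIT3, MX1, OAS1, IRF1, IRF9 and STING1, chosen by name and found by Ensembl ID among the 20345 genes of the count table. All cells had been transfected with siRNA, either a scrambled control (siCTRL) or siRNA against LSM14A (siLSM14A, 20 nM), and were then left untreated (NT) or exposed to 10 mM hydroxyurea (HU) for 2 h. Each of these 4 conditions had 3 replicates of total RNA and 3 of heavy-polysome RNA, which makes 24 libraries. The labels number the replicates in both fractions but do not say that libraries of the same number came from the same culture. No group was free of transfected RNA, and all groups came from the same cell line. Cycloheximide, which arrests ribosomes on mRNA, was given to every culture before lysis. Depletion by siRNA is partial, so the siLSM14A cells were not null for the gene.

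Interferons are secreted when a cell senses foreign or misplaced nucleic acid. They signal through JAK kinases to a transcription complex that includes IRF9 and binds interferon-stimulated response elements in the promoters of antiviral genes. STING1 is the adaptor at the endoplasmic reticulum that is activated by the second messenger made by the DNA sensor cGAS, and it leads through TBK1 and IRF3 to interferon beta. LSM14A is an RNA-binding protein of processing bodies that has been implicated in translational control and described as a sensor of viral nucleic acids. HU inhibits ribonucleotide reductase and stalls DNA replication. The study asked how LSM14A shapes translation under HU, and the 9 genes were described here in total RNA, in polysomal RNA and as the ratio of both.

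The response element is the sequence that ties these antiviral genes together, so its copies near their start sites are shown first. The letters GAAANNGAAA, or TTTCNNTTTC on the other strand, were searched in RefSeq promoters of GRCh38.p14, which run from 250 bases before to 50 bases after each start. Of all 35116 promoters, 3.57% held a match. Of the 9 genes, 7 had a promoter in this set, with 2 for IFIT3 and 3 for MX1. In 4 of these genes (ISG15, IFIT1, IFIT3 and MX1) at least 1 promoter held a match, a count by gene and not by promoter. The match nearest to the start of each such promoter is printed with 10 bases on either side, 5′ to 3′ on the plus strand, the strand on which all 4 genes lie, with the motif in capitals. Matches that overlap by 4 bases in ISG15 were counted separately. Positions count from the start base as 0.
ISG15, chr1:1013380-1013409, motif from -107 to -98: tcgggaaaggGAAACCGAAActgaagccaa
IFIT1, chr10:89392510-89392539, motif from -103 to -94: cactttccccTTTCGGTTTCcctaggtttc
IFIT3, promoter 1, chr10:89327865-89327894, motif from -122 to -113: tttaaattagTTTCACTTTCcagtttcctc
IFIT3, promoter 2, chr10:89332468-89332497, motif from -51 to -42: gttccatcagTTTCACTTTCctttcccctt
MX1, promoter 1, chr21:41420559-41420588, motif from 11 to 20: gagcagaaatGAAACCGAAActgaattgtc
MX1, promoter 3, chr21:41431844-41431873, motif from -196 to -187: ggtcactctgTTTCTCTTTCcgtgaataaa
ISG15 and the first promoter of MX1 shared the same 10 motif letters, which IFIT1 held on the other strand, and the downstream copies of both IFIT3 promoters also shared theirs. OAS1, IRF1 and IRF9 had no match to these letters in their windows. A match is a description of sequence and not a measured binding site.

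The libraries held 24789280 to 40645263 counts in total RNA and 28776634 to 44897501 in polysomal RNA. LSM14A itself was measured at 80.5 to 90.6 counts-per-million (CPM, on TMM-scaled library sizes) in total RNA of siCTRL cells and at 6.11 to 8.27 CPM in siLSM14A cells. Its log2 change was -3.49 (SE 0.075) without HU and -3.67 with HU, with edgeR adjusted p-values of 1.91e-09 and 8.41e-11. Of 10 melanocytic markers, SOX10 (547 to 663 CPM), DCT (650 to 908 CPM) and PMEL (305 to 380 CPM) were high in total RNA. The lowest of the 10 were MLANA (5.45 to 10.1 CPM), TYRP1 (3.897 to 5.46 CPM) and MIA (0.212 to 0.496 CPM). Among markers of other cell types, the epithelial KRT19 was at 0 and KRT14 at 0.993 to 2.82 CPM, and the stromal LUM stood at 31.3 to 43.2 CPM, DCN at 1.18 to 1.94 CPM and COL1A1 at 0.953 to 1.58 CPM. Mitochondrial genes took 6.82 to 8.84% of counts in total RNA and 0.628 to 1.95% in polysomal RNA. In such bulk libraries, a change in the share of cells that express a gene and a change of its RNA per cell cannot be told apart.

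No interferon was added in any condition, and the 9 genes were read at low to moderate levels over untreated and HU-treated libraries alike. Per transcript length (CPM divided by the transcript length in kilobases, RPKM), the median over the 12 total RNA libraries was 14.6 for STING1 and 13.7 for ISG15, and the ranges of both genes overlapped. IFIT3 followed at 7.14 and IRF1 at 3.96. MX1 (2.52), IFIT2 (2.39) and IFIT1 (1.75) came next, each overlapping its neighbour in that order, and OAS1 had 1.13. IRF9 was last at 0.117 RPKM. In siCTRL NT cells, STING1 was above 68.0% and ISG15 above 64.8% of the 12855 genes ranked, IFIT3 above 49.0%, and OAS1 above 18.9%.

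IRF9, the DNA-binding subunit of the interferon complex, was read by 2 to 20 counts per total RNA library and 0 to 9 counts per polysomal library. On hg19 it lies at chr14:24630443-24637252 on the plus strand, and only 6.9% of the bases of its canonical transcript lie outside another annotated gene of the same strand. Reads of these shared bases cannot be assigned to IRF9 alone, so its counts are uncertain. It passed the filter on low counts in 3 of 18 tests and the text below therefore covers the 8 other genes unless it is named.

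**Figure D1:**
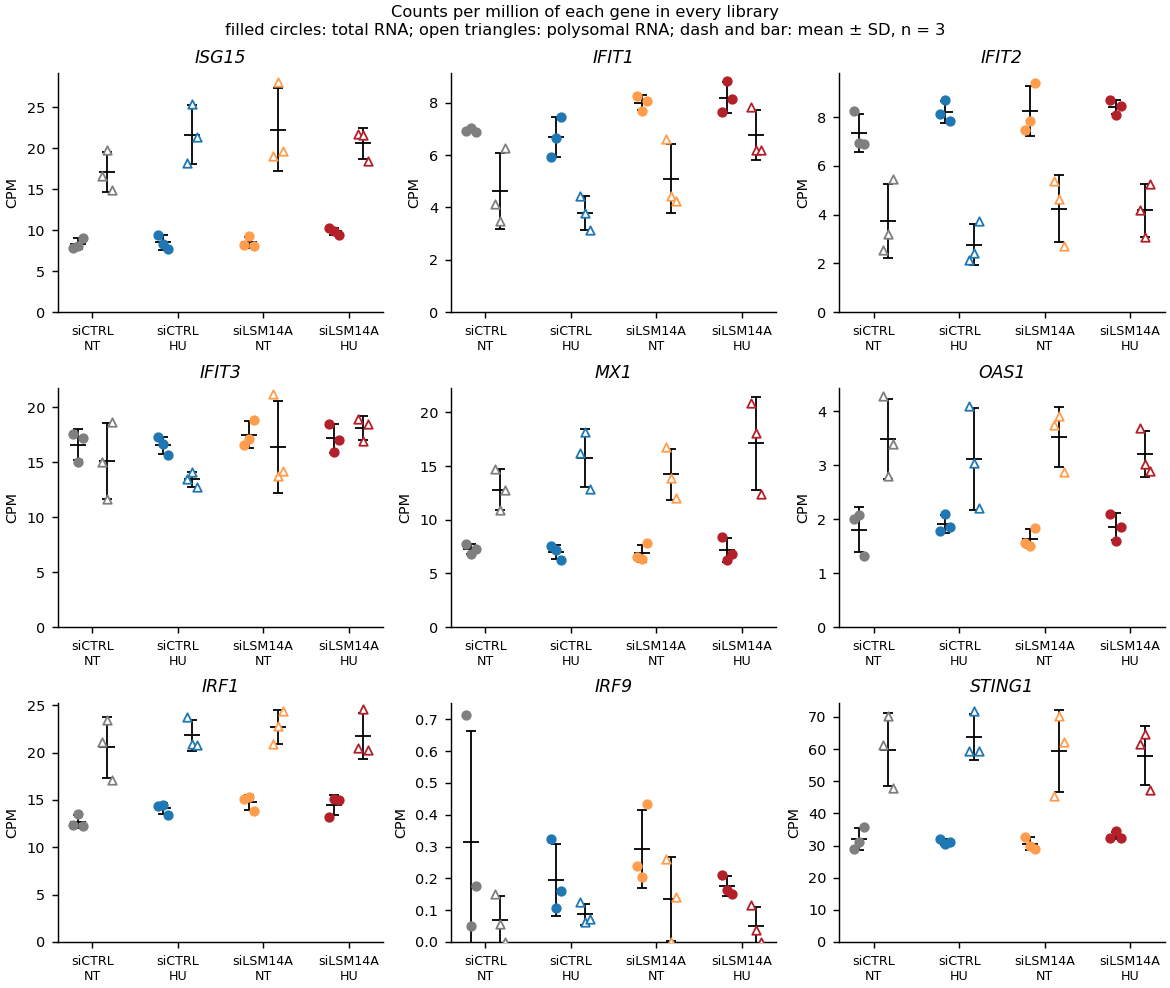
CPM (y axis, linear, from 0) of each of the 9 genes in every library of the 4 conditions (x axis), with total RNA as filled circles and polysomal RNA as open triangles; dashes and bars give mean ± SD of 3 replicates, cut at 0 for IRF9. Polysomal values of ISG15, MX1 and STING1 lie above all total RNA values of the same gene, and those of IFIT2 lie below them. How many of all genes separate like this was not measured.

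STING1 lies at chr5:138855118-138862520 on the minus strand (hg19) and its canonical transcript has 2170 bases. In total RNA it was counted at 29.02, 31.1 and 35.8 CPM in siCTRL NT cells, 32.2, 30.4 and 31.05 in siCTRL HU cells, 32.8, 30.005 and 28.9 in siLSM14A NT cells, and 32.4, 34.5 and 32.4 in siLSM14A HU cells. The highest of these 12 libraries was 1.24 times the lowest. The siLSM14A HU libraries lay just above the siCTRL HU libraries, but with total counts as library sizes these groups overlapped (lowest siLSM14A HU 36.1, highest siCTRL HU 36.3 CPM). In the other pairs of conditions that differ by 1 factor the values overlapped. In polysomal RNA it was counted at 61.3, 70.3 and 47.9 CPM, then 59.5, 71.9 and 59.5, then 45.4, 70.3 and 62.4, then 61.6, 64.6 and 47.4, in the same order of conditions. These polysomal values overlapped between all conditions, and each was above all total RNA values of the gene.

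ISG15 encodes a ubiquitin-like protein that is secreted or joined to other proteins. It lies at chr1:936518-949920 on the plus strand and has the shortest transcript of the set, with 637 bases. Total RNA held 7.77, 8.12 and 9.07 CPM in siCTRL NT, 9.45, 8.34 and 7.74 in siCTRL HU, 8.16, 9.31 and 8.13 in siLSM14A NT, and 10.2, 9.94 and 9.38 in siLSM14A HU cells. The siLSM14A HU libraries were thus above the siLSM14A NT libraries, the lowest of the former at 9.38 and the highest of the latter at 9.31 CPM, but with total counts as library sizes the groups overlapped. Polysomal RNA held 16.6, 19.8 and 14.9 CPM, then 18.2, 25.3 and 21.4, then 18.997, 28.1 and 19.7, then 21.7, 21.6 and 18.4, with overlap between all conditions.

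The IFIT genes lie near each other on the plus strand of chromosome 10, and proteins of this family bind foreign RNA. IFIT2 is at chr10:91043451-91069028, IFIT3 at chr10:91087064-91137230 and IFIT1 at chr10:91152303-91166244. IFIT1 total RNA stood at 6.92, 7.03 and 6.89 CPM in siCTRL NT, 5.93, 6.67 and 7.44 in siCTRL HU, 8.25, 7.69 and 8.06 in siLSM14A NT, and 7.62, 8.83 and 8.12 in siLSM14A HU cells. Every siLSM14A library was above every siCTRL library. IFIT1 polysomal RNA stood at 4.12, 3.48 and 6.26 CPM, then 4.44, 3.80 and 3.15, then 6.60, 4.45 and 4.24, then 7.85, 6.21 and 6.20. Here the siLSM14A HU libraries were above the siCTRL HU libraries, and the untreated groups overlapped. The share of all genes whose libraries separate in these ways was not measured.

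IFIT3 total RNA varied from 14.99 to 18.9 CPM over the 12 libraries and overlapped between all conditions. Its polysomal RNA was 15.02, 11.7 and 18.6 CPM in siCTRL NT, 13.5, 14.1 and 12.7 in siCTRL HU, 21.2, 13.7 and 14.2 in siLSM14A NT, and 18.96, 16.9 and 18.5 in siLSM14A HU cells. The siLSM14A HU libraries were again above the siCTRL HU libraries, and again the share of all genes that separate was not measured. IFIT2 total RNA varied from 6.89 to 9.42 CPM. Its polysomal RNA was 2.55, 3.20 and 5.46 CPM, then 2.16, 2.43 and 3.73, then 5.38, 4.65 and 2.71, then 4.19, 3.103 and 5.28, and these groups overlapped. The polysomal values of IFIT2 rest on 69 to 185 counts per library.

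MX1 encodes a dynamin-like GTPase that traps viral nucleocapsids and lies at chr21:42791947-42841998 on the plus strand. Its total RNA was 6.21 to 8.40 CPM and its polysomal RNA 10.9 to 20.9 CPM, with overlap between the conditions in either fraction. OAS1, which makes the oligoadenylates that activate RNase L, lies at chr12:113343661-113371024 on the plus strand. It was the lowest of the 8 genes at 1.32 to 2.10 CPM in total RNA (45 to 85 counts) and 2.21 to 4.27 CPM in polysomal RNA.

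IRF1, a transcription factor that can drive many interferon-stimulated genes without interferon, lies at chr5:131776132-131844411 on the minus strand. Its total RNA was 12.4, 13.5 and 12.2 CPM in siCTRL NT and 15.1, 15.3 and 13.8 CPM in siLSM14A NT cells, which did not overlap. In this comparison 7 of the 9 genes overlapped, and the share of all genes that separate was not measured. With HU the total RNA of IRF1 was 14.4, 14.4 and 13.5 CPM in siCTRL and 13.2, 15.1 and 15.02 CPM in siLSM14A cells. Its polysomal RNA was 17.1 to 24.6 CPM over the 12 libraries and overlapped between all conditions.

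The first question was whether depletion of LSM14A changed these genes in cells without HU. None of the 8 genes passed an adjusted p-value of 0.05 in edgeR in total RNA, where 0.566% of all tested genes did, or in polysomal RNA, where 0.0162% did. At an unadjusted p under 0.05 there was 1 of the 8 in total RNA, against 10.8% of all genes, and 0 in polysomal RNA, against 1.96%. DESeq2 also called 0 of the 8 in either fraction, with 1 and 0 at an unadjusted p under 0.05. The 1 gene was IRF1, with a log2 change of 0.21 (SE 0.0837, 95% interval 0.02 to 0.40, adjusted p = 0.402). For STING1 the total RNA change was -0.07, with an interval of -0.26 to 0.12, and the polysomal change was -0.02, with an interval of -0.47 to 0.44. The median change of the 8 genes was 0.06 in total RNA, and that of all tested genes was close to 0.

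The translation efficiency was taken as the polysomal change relative to the total RNA change, and its test was the interaction term between fraction and condition. Without HU, depletion of LSM14A left 0 of 9 genes past the adjusted threshold in edgeR, as it did 0% of all tested genes, and 0 of 9 at an unadjusted p under 0.05, against 0.87% of all genes. DESeq2 gave 0 and 0. The estimates of the 8 genes lay between -0.07 (IRF1) and 0.34 (ISG15), and the interval of IRF9 ran from -2.22 to 3.89.

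The same comparison was made in cells exposed to HU. The study examined translation control by LSM14A both with and without HU, and its plot of translation efficiency sets HU-treated against untreated cells. In total RNA, edgeR called 0 of the 8 genes against 0.802% of all genes, and 1 of 8 had an unadjusted p under 0.05 against 8.54%. This was IFIT1, with a log2 change of 0.28 (SE 0.115, interval 0.03 to 0.53, adjusted p = 0.508). ISG15 had a change of 0.21 (interval -0.01 to 0.43) and STING1 of 0.08 (interval -0.06 to 0.21). DESeq2 called 0 of 8, with 1 at an unadjusted p under 0.05. Same-numbered libraries of both groups deviated together in total RNA, and a fit blocked on replicate number called 855 genes in place of 100. At an unadjusted p under 0.05 this edgeR fit gave 2 of the 8 genes, against 2385 of all 12475. The 8 genes still gave 0 calls, with an adjusted p of 0.061 for IFIT1, whose adjusted p ran from 0.061 to 1.00 over 10 alternatives.

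In polysomal RNA of HU-treated cells, the estimates of all 3 IFIT genes were above 0 after depletion of LSM14A. The log2 change was 0.84 for IFIT1 (SE 0.216, interval 0.37 to 1.304), 0.61 for IFIT2 (SE 0.279, interval 0.00 to 1.22) and 0.44 for IFIT3 (SE 0.161, interval 0.09 to 0.79). None passed after adjustment over all genes, with edgeR adjusted p-values of 0.739 for each. Thus 0 of the 8 genes were called against 0.0653% of all genes, and 3 of 8 had an unadjusted p under 0.05 against 4.99% of all genes. DESeq2 likewise gave 0 calls and 3 genes at an unadjusted p under 0.05. The estimates of the other 5 genes lay between -0.13 (STING1) and 0.12 (MX1).

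The IFIT transcripts are poor in G and C, and the polysomal change of all genes in this comparison ran against GC content (Spearman -0.63 across 12256 genes, which are not independent replicates). The canonical transcripts of IFIT1, IFIT2 and IFIT3 have 41.8%, 41.7% and 44.4% GC. Among the 2588 genes of 40 to 45% GC the median polysomal change was 0.17, and the 10th to 90th percentiles were -0.11 and 0.45. IFIT1 and IFIT2 lay above that 90th percentile, and IFIT3 lay just under it. With a GC correction applied per library, the changes became 0.69 for IFIT1, 0.46 for IFIT2 and 0.34 for IFIT3, each with an adjusted p of 0.963. Over all 10 alternatives the adjusted p of IFIT1 was 0.0594 to 0.963, the lowest when blocked on replicate number, and over the 6 fits that left out 1 library it was 0.257 to 1.00.

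The translation efficiency in HU gave the same genes at the top. It was 0.55 for IFIT1 (SE 0.224, interval 0.07 to 1.03), 0.39 for IFIT3 (SE 0.152, interval 0.06 to 0.71) and 0.58 for IFIT2 (interval -0.04 to 1.21), on the log2 scale and with an edgeR adjusted p of 0.778 for each. No gene passed among the 8 or among all tested genes (0%), and 2 of the 8 had an unadjusted p under 0.05 against 3.85% of all genes. DESeq2 gave 0 and 2. The change of translation efficiency of all genes was again related to GC content (Spearman -0.65), and the corrected values were 0.39, 0.29 and 0.42. After this correction 0 of the 8 had an unadjusted edgeR p under 0.05, against 269 of 12649 genes. With both the correction and the replicate block there were 3 of 8, against 723 genes. Without correction STING1 had -0.21 (interval -0.57 to 0.14) and ISG15 -0.27 (interval -0.68 to 0.13). These polysomal and efficiency values share the same polysomal libraries and are not independent of each other.

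**Figure D2:**
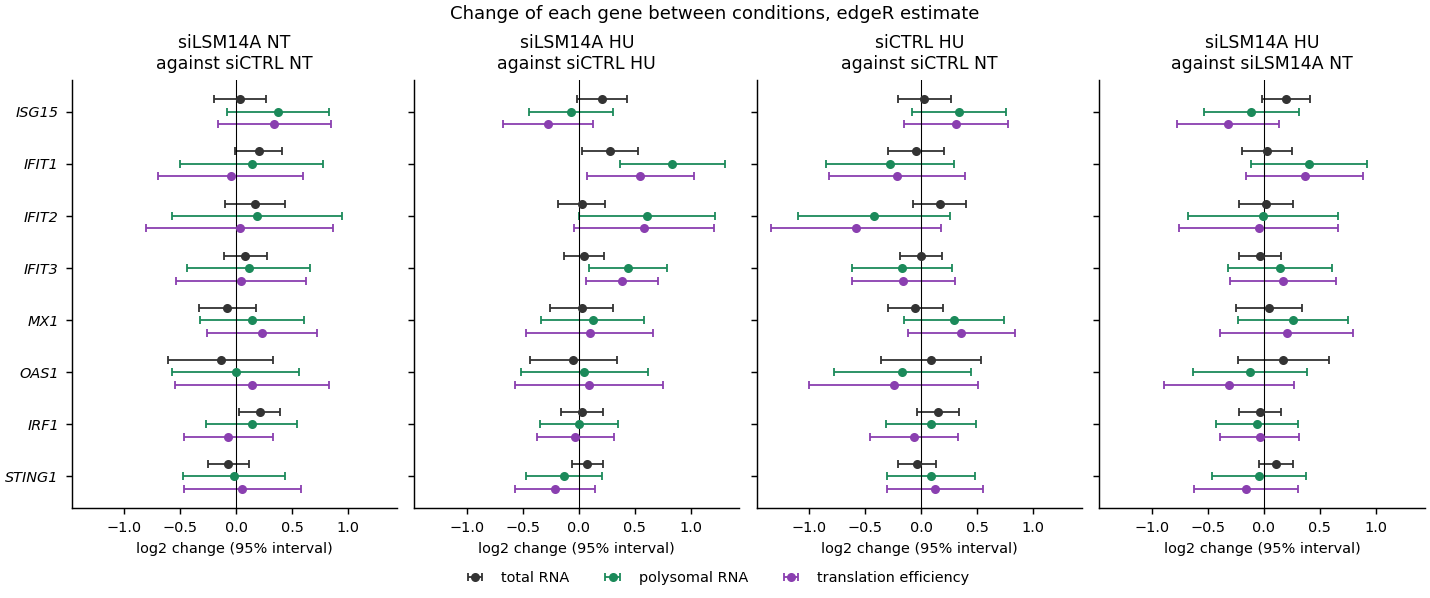
Log2 changes of 8 genes (y axis) in 4 comparisons of conditions, for total RNA, polysomal RNA and translation efficiency; points are edgeR estimates and bars their 95% intervals (x axis, log2). The intervals of IFIT1 and IFIT3 lie above 0 in polysomal RNA and translation efficiency of siLSM14A HU against siCTRL HU, before any adjustment over genes or correction for GC content.

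The next question was whether 2 h of HU changed the genes. In siCTRL cells, edgeR called 0 of 8 in total RNA, polysomal RNA and translation efficiency, as it called 0% of all genes in each. At an unadjusted p under 0.05 there were again 0 of 8 in each, against 1.44%, 2.1% and 2.31% of all genes, and DESeq2 gave 0 of 8 by either count. In total RNA the estimates ran from -0.05 (MX1) to 0.16 (IFIT2), and for STING1 the interval was -0.21 to 0.13. In translation efficiency they ran from -0.58 for IFIT2 (interval -1.34 to 0.18) to 0.36 for MX1 (interval -0.12 to 0.83). The 3 MX1 ratios of same-numbered polysomal to total RNA in siCTRL HU cells were all above those in siCTRL NT cells, and 7 other genes overlapped. Deviations of such polysomal and total RNA pairs correlated at only 0.05 to 0.13 in both conditions. The share of all genes whose ratios separate was not measured. Within a fraction, same-numbered HU and NT libraries of siCTRL cells deviated together as well. Blocking on that number gave 15 calls in total RNA and 1 in polysomal RNA in place of 0, none of them among the 8. At an unadjusted p under 0.05 the blocked edgeR fit gave 0 of 8 in total RNA, against 501 of 12506 genes. It gave 1 of 8 in polysomal RNA, against 1263 of 12315, and 1 of 8 in translation efficiency, against 1017 of 12693.

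In siLSM14A cells, HU also gave 0 of 8 calls in edgeR in total RNA, polysomal RNA and translation efficiency, and 0% of all genes. The counts at an unadjusted p under 0.05 were 0 of 8 each, against 5.2%, 0.871% and 1.41% of all genes, and DESeq2 gave 0 of 8 by either count. ISG15 had the largest change of the 8 in total RNA, 0.20 (interval -0.02 to 0.41), and a translation efficiency of -0.32 (interval -0.78 to 0.14). Its 3 ratios of polysomal to total RNA in siLSM14A HU cells lay below those in siLSM14A NT cells, and 7 other genes overlapped. In siLSM14A NT cells the deviations of such same-numbered pairs correlated at only -0.27 to 0.09. The share of all genes whose ratios separate was not measured here either. STING1 had 0.11 in total RNA (interval -0.04 to 0.26) and -0.16 in translation efficiency (interval -0.62 to 0.31).

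The difference between the effects of HU in siLSM14A and in siCTRL cells was tested directly. In total RNA 0 of 9 genes and 0% of all genes passed in edgeR, with 0 of 9 at an unadjusted p under 0.05 against 2.9%. For translation efficiency 0 of 9 and 0% passed, with 0 of 9 against 1.9%. DESeq2 called 0 of 9 in both, with 0 and 1 at an unadjusted p under 0.05. ISG15 came closest, since its translation efficiency was estimated at 0.31 under HU in siCTRL cells and -0.32 in siLSM14A cells, a difference of -0.62 (SE 0.303, interval -1.25 to 0.00, adjusted p = 0.896). The difference for STING1 was 0.15 in total RNA (interval -0.08 to 0.37) and -0.28 in translation efficiency (interval -0.90 to 0.35). For IFIT1 it was 0.59 in translation efficiency (interval -0.20 to 1.37). All of these comparisons reuse the libraries of the comparisons above.

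Within every condition, the genes fell into those richer and those poorer in polysomal than in total RNA. With no pairing of libraries, the polysomal values of ISG15, MX1, STING1, OAS1 and IRF1 lay above the total RNA values in each of the 4 conditions, and those of IFIT2 lay below. Ratios were also taken between libraries of the same number, although deviations of these pairs correlated above 0.1 throughout only in siLSM14A HU cells and ran from -0.27 to 0.09 in siLSM14A NT cells. ISG15, MX1, STING1, OAS1 and IRF1 had a ratio above 1 in 12 of 12 such pairs. The log2 ratio of polysomal to total CPM was 0.72 to 1.60 for ISG15 (median 1.17), 0.62 to 1.54 for MX1 (median 1.07) and 0.42 to 1.24 for STING1 (median 0.93). It was 0.25 to 1.37 for OAS1 and 0.43 to 0.82 for IRF1. IFIT2 had a ratio below 1 in 12 of 12 pairs, from -1.91 to -0.34 on the log2 scale, and IFIT1 in 11 of 12, from -1.24 to 0.04. IFIT3 lay around equality, below in 7 of 12, from -0.41 to 0.36. How many of all genes separate in these ways was not measured, so the separation is not shown to be particular to these genes.

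**Figure D3:**
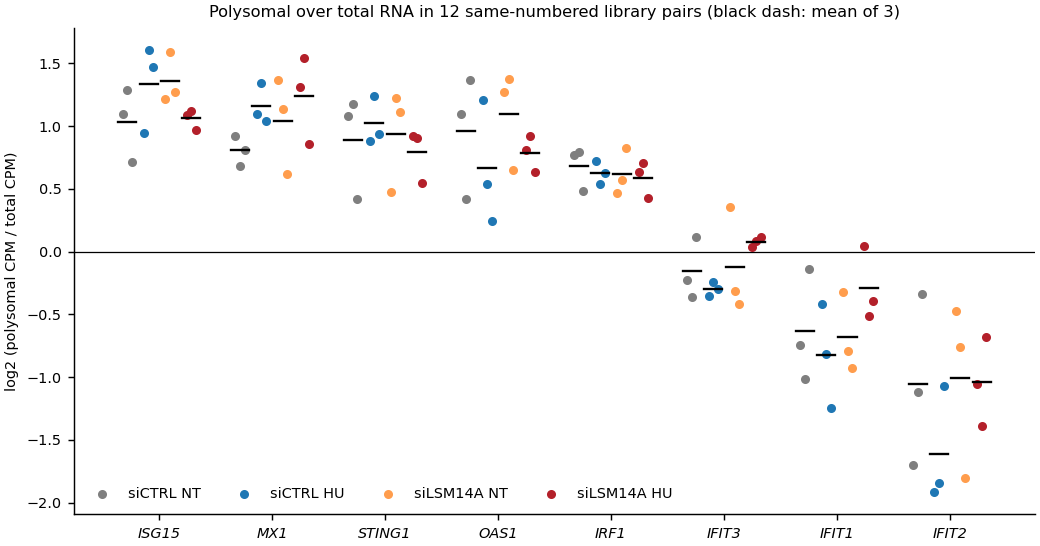
Log2 ratio of polysomal to total CPM (y axis) of 8 genes (x axis) in each of 12 pairs of same-numbered libraries, coloured by condition; black dashes are means of 3. All points of ISG15, MX1, STING1, OAS1 and IRF1 lie above 0 and all points of IFIT2 lie below.

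In siCTRL NT cells edgeR called 7 of the 8 genes between the fractions, 5 higher and 2 lower in polysomal RNA, against 63.8% of all genes (31.4% higher and 32.3% lower). The log2 change was 1.04 for ISG15 (adjusted p = 0.00074), 0.95 for OAS1 (0.00932), 0.90 for STING1 (0.00173), 0.81 for MX1 (0.00226) and 0.69 for IRF1 (0.00376). It was -0.997 for IFIT2 (0.011), -0.60 for IFIT1 (0.0385) and -0.14 for IFIT3 (0.514). The median of the 8 genes was 0.75, beside -0.03 over all tested genes. As most genes differ between the fractions, the number of calls among the 8 is not itself a result about them.

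The other conditions gave a like picture. In siCTRL HU cells 8 of 8 genes were called, 5 higher and 3 lower, against 73.5% of all genes (36.2% higher and 37.4% lower). ISG15 had 1.36, MX1 1.18, STING1 1.04, OAS1 0.72, IRF1 0.64, IFIT3 -0.29, IFIT1 -0.81 and IFIT2 -1.57. The call of IFIT3 (edgeR adjusted p = 0.0476) was lost with same-numbered libraries as a block (0.072) and in DESeq2 (0.101). In siLSM14A NT cells 7 of 8 were called, 5 higher and 2 lower, against 64.4% of all genes (32.1% higher and 32.3% lower), from 1.40 for ISG15 to -0.94 for IFIT2. In siLSM14A HU cells 6 of 8 were called, 5 higher and 1 lower, against 66.8% (32.8% higher and 34.1% lower), from 1.26 for MX1 to -1.01 for IFIT2, while IFIT1 (-0.28, adjusted p = 0.118) and IFIT3 (0.08, adjusted p = 0.557) did not pass.

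The polysomal share of all genes was related to the GC content of their transcripts, with a Spearman correlation across genes of 0.69 and 0.73 in siCTRL NT and HU cells and of 0.68 and 0.67 in siLSM14A NT and HU cells. The 9 genes differ widely in this respect, from 64.2% GC in ISG15 and 57.0% in STING1 to 53.0% in IRF1, 51.8% in MX1, 50.7% in OAS1 and 41.7 to 44.4% in the IFIT genes. In siCTRL NT cells the median change of genes of like GC content was 0.70 for ISG15, 0.57 for STING1, 0.26 for IRF1, MX1 and OAS1, and -0.49 for the IFIT genes. After GC correction MX1 kept 0.54 and OAS1 0.78 in siCTRL NT cells, whereas STING1 went from 0.90 to 0.33, ISG15 from 1.04 to 0.29 (adjusted p = 0.0689) and IFIT1 from -0.60 to -0.13, which was not called. IFIT2 had -0.53 after correction. In siCTRL HU cells IFIT3 turned from -0.29 to 0.12, and in siLSM14A HU cells it was called higher, at 0.39 (adjusted p = 0.00582). With GC correction edgeR called 5 of the 8 genes in siCTRL NT, 4 in siCTRL HU, 5 in siLSM14A NT and 7 in siLSM14A HU cells.

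**Figure D4:**
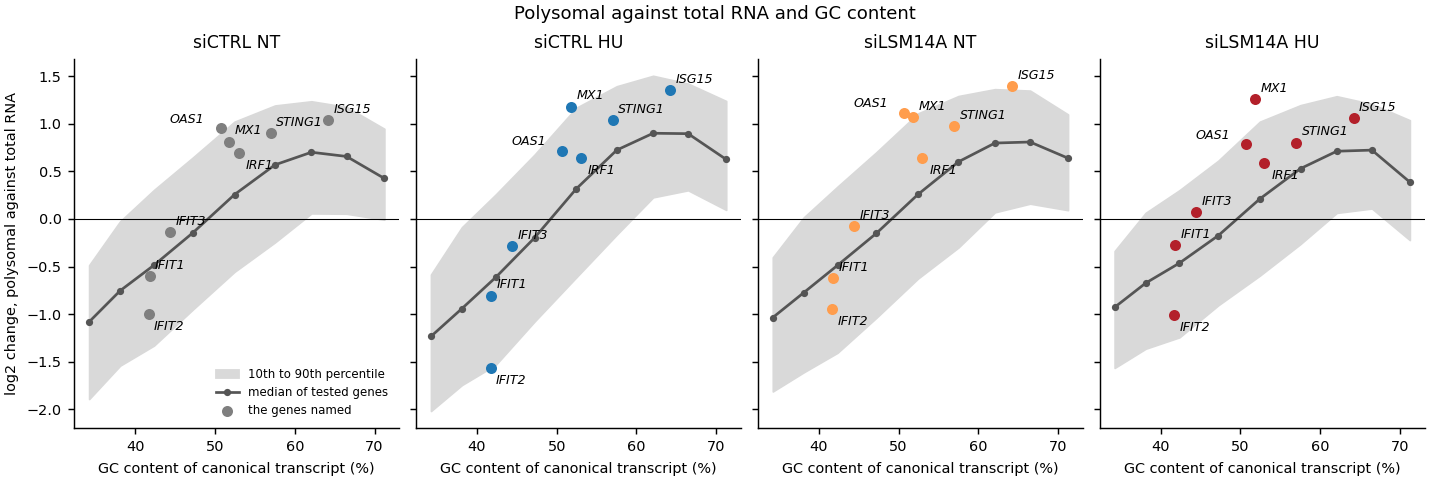
Log2 change of polysomal against total RNA (y axis) by GC content of the canonical transcript in percent (x axis) in each condition; points are 8 genes, the line joins medians of all tested genes by GC class and the band spans their 10th to 90th percentiles. MX1 and OAS1 lie above the line of medians in all 4 conditions, STING1 and ISG15 above it by less than they lie above 0, and IFIT2 below it.

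The scale of the ratio depends on how library sizes were set. With total counts in place of TMM-scaled library sizes, every log2 ratio was lower by 0.22 to 0.48. ISG15, MX1, IRF1 and STING1 were then still above 0 in 12 of 12 pairs and OAS1 in 11 of 12, IFIT1 and IFIT2 were above 0 in 0 of 12, and IFIT3 in 1 of 12.

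The rest of the pathway was examined with 7 lists of 119 genes, of which 116 were in the table. The interferon genes IFNA1, IFNB1, IFNG, IFNL2 and IFNL3 were at 0 counts in all 24 libraries. A count of 0 allows up to 3 counts in a library, or 0.0648 to 0.116 CPM at these depths, for counting error only. IFNL1 reached 2 counts in total RNA and 0 in polysomal RNA, and IFNE 3 and 6. The chemokine CXCL10, a sensitive interferon target, had 2 to 14 counts in total RNA, while the inflammatory cytokines CXCL8 and IL6 had means of 21.8 and 2.78 CPM. The DNA sensor CGAS (14.9 to 20.5 CPM), the STING1 effectors TBK1 (38.8 to 46.4 CPM) and IRF3 (38.8 to 47.6 CPM), and the interferon receptor chains IFNAR1 (50.6 to 66.0 CPM) and IFNAR2 (29.5 to 36.4 CPM) were all read in total RNA. Of the other interferon-stimulated genes, LGALS3BP (1039 to 1301 CPM) and IFITM3 (243 to 321 CPM) were the most abundant, whereas RSAD2 (0.613 to 1.21 CPM) and IFI44L (0.411 to 0.951 CPM) were scarce.

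None of the listed genes passed an adjusted p-value of 0.05 in edgeR in any of the 14 comparisons of conditions. Of the 2 most abundant genes of each list, CXCL8 came closest, with 0.47 in total RNA of siLSM14A NT against siCTRL NT cells (interval 0.12 to 0.83, adjusted p = 0.312). Over the 14 comparisons IFI16, a nuclear DNA sensor, had log2 changes of -0.08 to 0.39, TRIM25, a ubiquitin ligase of the RIG-I pathway, of -0.16 to 0.11, and JAK1 of -0.02 to 0.15. RELA and NFKB1, subunits of NF-kappaB, had -0.15 to 0.16 and -0.05 to 0.11. SURF4 and TMED2, which act in transport between endoplasmic reticulum and Golgi, had -0.20 to 0.05 and -0.15 to 0.08. The phosphatase PTPN1 had -0.23 to 0.27, RNASEH2A -0.48 to 0.23, IFNGR2 -0.29 to 0.07, LGALS3BP -0.34 to 0.33, IFITM3 -0.47 to 0.33 and IL6 -0.45 to 0.65.

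At an unadjusted p under 0.05, the polysomal comparison of siLSM14A HU with siCTRL HU cells gave 7 of 44 other interferon-stimulated effectors and 2 of 12 nucleic acid sensors and adaptors, all with estimates above 0, and none of the other 5 lists, against 4.99% of all genes in either direction. The effectors were GBP1 (0.78), GBP2 (0.44), GBP3 (0.77), SAMD9 (0.57), SAMD9L (0.79), TRIM5 (0.43) and IFI44 (0.42), and from the other list IFIH1 (0.61), which detects double-stranded RNA, and the kinase TBK1 (0.49), all with adjusted p-values from 0.543 to 0.739. These names were chosen after their values were seen. The median log2 change was 0.20 over the effectors, 0.16 over the sensors and adaptors and 0.01 over all tested genes. It was -0.10 over the 13 STING trafficking genes and partners, of which 1 had an estimate above 0, -0.09 over the 12 negative regulators (4 above 0), -0.08 over the 9 receptors and kinases (4 above 0) and close to 0 over the 8 transcription factors. Both ligands tested had estimates above 0. For translation efficiency 6 of 45 effectors, 4 of 12 sensors and adaptors and none of the other lists had an unadjusted p under 0.05, all with estimates above 0, against 3.85% of all genes. The medians were 0.17 and 0.05, beside 0.01 over all tested genes, -0.10 over the STING trafficking genes and -0.10 over the negative regulators, and no gene was called. In total RNA of the same cells, an unadjusted p under 0.05 was found for 4 of 13 STING trafficking genes and partners, all with estimates below 0, and for 2 effectors above and 1 below 0, 1 sensor or adaptor below and 1 receptor below, against 8.54% of all genes. Without HU, total RNA gave 2 sensors or adaptors above and 2 below 0, 2 ligands above, 1 receptor or kinase above and 1 below, 4 effectors above and 2 below, 1 negative regulator above and 2 STING trafficking genes below, against 10.8%. Polysomal RNA without HU gave 1 ligand above and 1 STING trafficking gene below, against 1.96%. GC content was not corrected for in these list values.

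Between the fractions, genes of most lists were called in both directions. In siCTRL NT cells, where 31.4% of all genes were called higher and 32.3% lower in polysomal RNA, edgeR called 14 of 44 effectors higher and 7 lower in polysomal RNA, 5 of 8 transcription factors higher and 0 lower, 7 of 13 STING trafficking genes and partners higher and 1 lower, and 4 of 12 sensors and adaptors higher and 3 lower. Of 9 receptors and kinases 2 were higher and 4 lower, of 12 negative regulators 6 were higher and 3 lower, and both ligands tested were lower. UBA7, the enzyme that activates ISG15 for conjugation, had log2 changes of 2.41, 2.80, 2.57 and 2.62 in siCTRL NT, siCTRL HU, siLSM14A NT and siLSM14A HU cells. SLC19A1, a transporter that imports cyclic dinucleotides, had 1.33 in siCTRL NT, and the vesicle coat protein SEC24C had 1.20. Among those lower in polysomal RNA were PTPN2 (-1.73), TLR3 (-1.04) and TRIM56 (-0.91) in siCTRL NT, GBP3 (-2.10), JAK2 (-1.82) and TBK1 (-1.19) in siCTRL HU, and IFNAR1 (-1.14) in siLSM14A NT cells, all called by edgeR.

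Deviations of the 12 total RNA libraries from the mean of their condition went together in some genes and in opposite directions in others. The deviations of IFIT3 correlated with those of MX1 (Pearson's r 0.91) and IFIT2 (0.71), and those of IFIT2 with MX1 (0.70). OAS1 and STING1 had -0.84, IFIT2 and STING1 -0.75, IFIT3 and IRF1 -0.71, and ISG15 and IFIT1 -0.69. In polysomal RNA, IFIT3 had 0.47 with MX1 and 0.50 with IFIT2, whereas IFIT2 with MX1 had -0.19. There OAS1 and STING1 had -0.04, IFIT2 and STING1 -0.62, IFIT3 and IRF1 -0.76, and ISG15 and IFIT1 -0.50. Levels were then compared across the 12 total RNA libraries with the condition means left in. The mean standardised level of the 8 tested genes correlated with IFIT2 (Pearson's r 0.74), ISG15 (0.66) and IFIT3 (0.65), which are part of that mean, and less with MX1 (0.45), IFIT1 (0.36), IRF1 (0.30), OAS1 (0.22) and STING1 (0.05). Among the 5 genes outside the set most alike to the mean were ZSWIM8 (0.93), PPIF (0.91), CHFR (0.90) and ZHX3 (0.89), out of 11540 genes compared. Of the 96 listed pathway genes among these, 1 was in the top 100. Each of these correlations rests on 12 libraries that differ in depth, and is given as a description. Differences between conditions enter the correlations with the mean level but not those of the gene pairs.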

How the data were processed

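RNA of A2058 cells was sequenced as 24 libraries of polyadenylated RNA, stranded and paired-end, and samples were grouped by their deposited titles. The labels and the methods name A2058, whereas a figure legend of the study names A375 for the translation data. After adapter trimming, the authors mapped reads to hg19 and counted them per Gencode gene with STAR 2.6.1a. The deposited values are these raw counts. The methods give the polysomal pool in one place as a numbered range of heavy fractions and in another as the heaviest few. Of 20345 gene IDs, 19637 were matched to Gencode lifted to hg19 and 19086 were protein-coding. No source says what separates the replicates, so p-values measure the spread between these samples, which may be technical. Replicates differed by more than sampling noise (chi-square per gene 6.16 to 121).

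The tests used edgeR 4.0.16 in R 4.3.3 (quasi-likelihood F-test, TMM, filterByExpr at minimum count 10 and total 15, Benjamini-Hochberg adjustment over all protein-coding genes tested), in the libraries of the conditions compared. A gene was called at an adjusted p under 0.05. Translation efficiency was the interaction of fraction and condition. Xtail, which the study used, was not run. Alternatives were DESeq2 1.42.0, RLE factors, other filters, all genes, all 24 libraries in a single fit, blocks by replicate number within or across fractions, a loess GC correction (span 0.3, canonical transcripts, 96.52% of IDs), a larger prior count, total counts as library sizes, and each replicate left out. Tests were tried on simulated data. Figures were drawn in Python 3.11.15.

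The members, lists and tests were chosen with earlier results of these data known. The genes named are the 9 members, LSM14A and the fixed markers. From the lists, those called were named by smallest p, at most 3 in each direction, or the 2 most abundant per list where none was called. Other listed genes were named by level or unadjusted p, after their values were seen. Of the 5 genes most alike to the members, 4 were named. Results for some items under these rules are not reported here. IKBKE, CCL5, NLRC3 and PECAM1 were not analysed here. The labels number replicates 1 to 3 with no word on the meaning of a number. Pairing was accepted where each of the 3 same-numbered pairs had deviations correlated at over 0.1, in 4 of 12 pairings, namely total RNA of siLSM14A HU with siCTRL HU (0.16 to 0.29), siCTRL HU with NT in total (0.17 to 0.24) and polysomal RNA (0.14 to 0.39), and both fractions of siLSM14A HU (0.13 to 0.20).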

Additional observations from a re-analysis of the deposited data

How the results depend on the processing

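In the 14 comparisons of conditions, 0 members were called under any alternative run, including DESeq2, the replicate block and each replicate left out. The number of all genes called did vary. In total RNA without HU, siLSM14A against siCTRL gave 71 genes, and 178 with DESeq2, 13 with all 24 libraries in the fit, 121 with GC correction and 45 with the replicate block. With HU it gave 100, and 186, 17, 156 and 855 in the same order. In polysomal RNA it gave 2 without HU, 8 with DESeq2 and 27 with all libraries, and with HU 8, then 20 with DESeq2, 29 with all libraries and 40 with the block. Between polysomal and total RNA, the 8 genes called in siCTRL HU cells became 4 with GC correction and 4 with the replicate block (same-numbered libraries of both fractions) with GC correction, and the 7 in siLSM14A NT cells became 4 with the latter. IFIT3 in siCTRL HU cells reversed from -0.29 to 0.123 with GC correction and to 0.120 with block and GC correction. Without 1 replicate, the calls ranged from 4 to 7 in siCTRL NT (4 without replicate 2), 6 to 7 in siCTRL HU, 5 to 7 in siLSM14A NT and were 6 in siLSM14A HU. That replicate block without GC correction gave 7, 7, 7 and 6 calls. It ended the call of IFIT3 in siCTRL HU cells and changed no other call. The causes of these shifts were not tested. OAS1, IFIT2 polysomal RNA and IRF9 are limited by low counts.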
